A study of Mus musculus with 12 samples.

Results

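The genes described are those of the proteasome: every protein-coding gene in the count table whose symbol begins with Psma to Psmg followed by a number, together with Psme2b. The rule used names alone and no measured value, and it found 49 genes among 39017 gene identifiers, of which 21226 were protein-coding. They comprised 8 genes for the outer alpha rings of the core particle, 4 for structural and 3 for constitutive catalytic subunits of its inner beta rings, the 3 immunoproteasome genes Psmb8, Psmb9 and Psmb10, the thymic gene Psmb11, 6 ATPases and 11 other subunits of the regulatory particle, 6 genes for activators and an inhibitor, and 7 assembly chaperones.

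The libraries held RNA of spinal cord microglia, the resident macrophages of the central nervous system, from C57BL/6 females in which experimental autoimmune encephalomyelitis (EAE), a model of multiple sclerosis, had been induced. There were 6 libraries of genotype Kdm6a cKO, a conditional knockout of an X-linked histone demethylase gene, numbered cKO 1 to cKO 6, and 6 wildtype libraries, numbered WT 7 to WT 12. All 12 carried the Tmem119-Cre and RiboTag alleles, so the controls also expressed Cre from a microglial gene together with the tagged ribosomal protein that RiboTag provides for collecting ribosome-bound RNA from Cre-expressing cells. The labels did not say whether each library came from its own animal, so all p-values measure the spread between libraries.

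The proteasome degrades proteins tagged with ubiquitin. Its barrel-shaped core particle cuts proteins at catalytic beta subunits facing an inner chamber, and its regulatory particle binds, unfolds and feeds in the substrates. In immune cells, and in other cells under interferon-gamma, 3 inducible beta subunits replace the constitutive ones in newly built core particles, and the resulting immunoproteasome generates many of the peptides that MHC class I molecules present. Activated microglia are one of the brain cell types known to express it.

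The depth ranged from 19040115 to 26296071 counts per library. All 13 microglial markers examined exceeded a CPM (counts scaled by TMM-adjusted library size) of 1 in at least 1 library. Their summed level was 41100 to 59120 CPM in cKO and 45310 to 52110 CPM in WT. The sum hides differences between markers. In the edgeR test described below, Siglech was called higher in cKO, at a log2 fold change of 1.72 (edgeR adjusted p = 0.00119). Of the 13 markers 8 had a log2 fold change above 0, with a median of 0.06. In cKO 5 their median log2 ratio to the median of the other libraries was -0.48, against -0.05 for all genes. Kdm6a itself read 1.59 CPM at the lowest, 2.81 at the median and 4.50 at the highest in cKO, against 3.35, 4.29 and 6.19 in WT. The ranges overlapped, and cKO 2 held the highest cKO value. Neuronal transcripts varied more within cKO than within WT: the 13 listed markers, all detected, summed to 250 to 916 CPM in cKO, with cKO 2, cKO 1 and cKO 4 highest, and to 235 to 363 CPM in WT. The library cKO 5 stood apart for the proteasome genes themselves, so the group differences of the members named are given with and without it.

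Of the 49 genes, 48 had enough counts to be tested. Psmb11, which encodes the catalytic subunit special to thymic cortical epithelium, had no count in 10 libraries and 1 count in each of cKO 5 and cKO 6. A count of 0 allows up to 3 counts, which is 0.114 to 0.158 CPM in these libraries and covers counting error only. Psma8, which replaces an alpha subunit in testis, was detected at a low level, 3.25 to 5.25 CPM in WT and 3.62 to 6.56 CPM in cKO.

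No proteasome gene was called by the edgeR quasi-likelihood test with Benjamini-Hochberg adjustment over all 15015 genes tested. Of the 48, 0 passed an adjusted p of 0.05, where 5.87% of all genes did, 2.44% higher and 3.43% lower in cKO. In simulated counts the same test recovered 26.9% of 1.5-fold and 68.7% of 2-fold changes, with 9.93% of its calls false. Differences of such sizes may therefore have been missed. At an unadjusted p under 0.05 there were 2 of 48, beside 23.8% of all genes, and DESeq2 also called 0, beside 10.6% of all genes. The CPM ranges of cKO and WT overlapped for all 48, whereas they were separate for 4.13% of all genes. The fitted log2 fold change, cKO against WT, was above 0 for 37 genes and below 0 for 11, with a median of 0.17 against 0.03 over all genes tested. It ran from -0.14 for Psmd8 to 0.37 for Psma3. Leaving out cKO 5 moved the median to -0.06, with 15 genes above 0 and 33 below, and still 0 were called although 18.6% of all genes then passed.

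**Figure D1:**
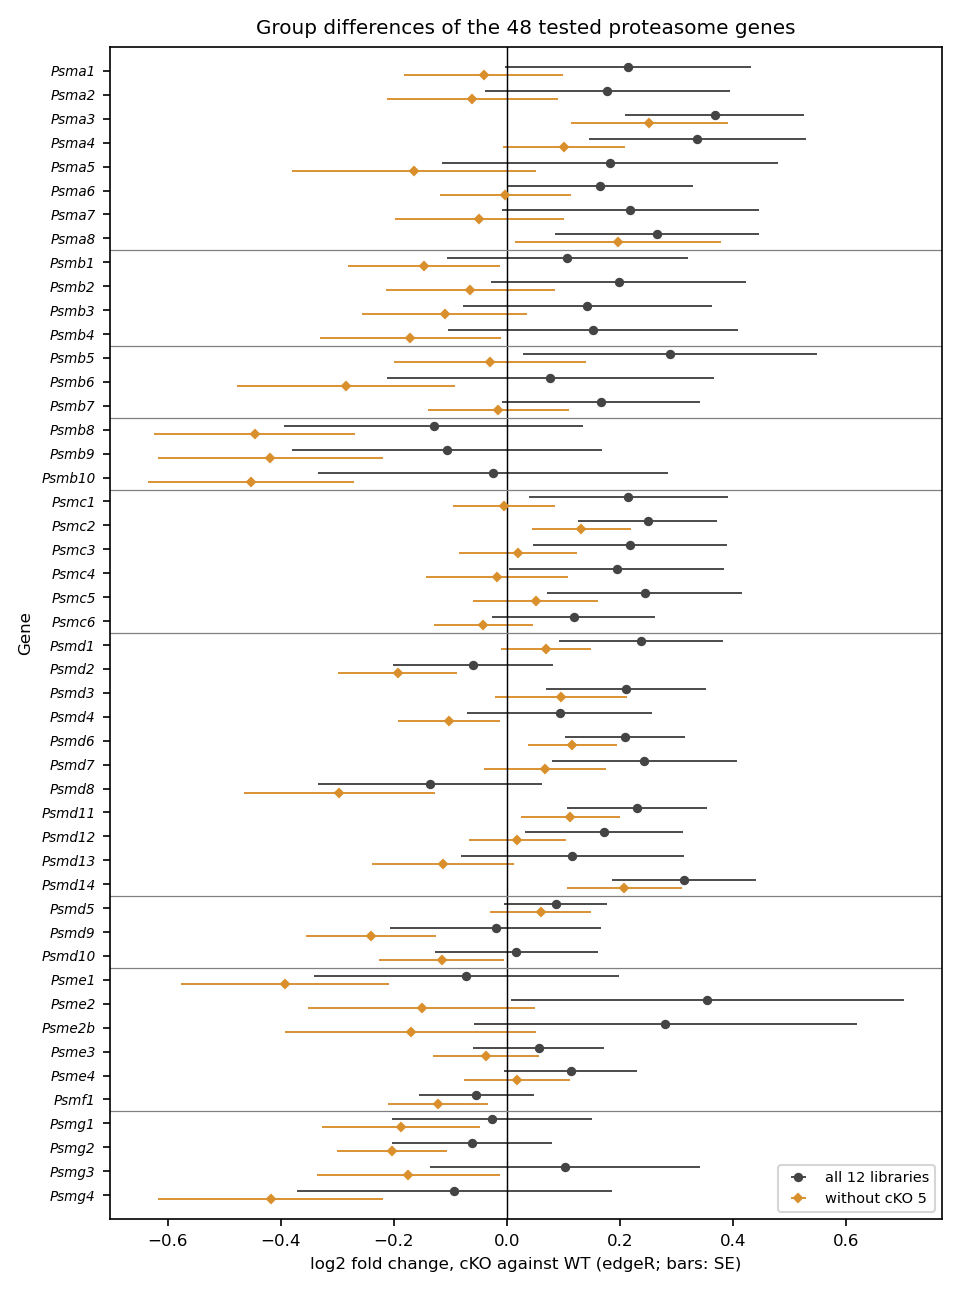
Fitted log2 fold change of cKO against WT for the 48 tested proteasome genes, in order of subunit class (grey lines separate classes); black circles use all 12 libraries, orange diamonds leave out cKO 5, and bars are standard errors. Most circles lie right of 0 (median 0.17), most diamonds lie left of their circle (median -0.06), and the immunoproteasome genes are left of 0 in both fits.

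Of the immunoproteasome genes, Psmb8 and Psmb10 were among the most abundant of the family. Per kilobase of the principal transcript, Psmb8 was the highest of the 48 in WT at 275 ± 49.9 CPM per kilobase (mean ± SD, n = 6), next to Psme1, a subunit of the interferon-inducible PA28 activator, at 272 ± 62.4 and the constitutive catalytic gene Psmb6 at 260 ± 29.8. These 3 levels lay within each other's spread. Psmb10 followed at 164 ± 42.2, and Psmb9, at 120 ± 26.3 CPM per kilobase, came after Psme2b, Psmd8, Psmb4 and Psmb2, while the constitutive partners Psmb5 and Psmb7 stood at 48.2 ± 5.86 and 53.6 ± 6.00. At the low end were Psma3, an alpha subunit, at 1.56 ± 0.252, Psme4, the large nuclear activator, at 2.56 ± 0.196, and Psma8 at 2.63 ± 0.479 CPM per kilobase. The order depends on the length used: per kilobase of all annotated exons, Psme2b (159) and Psme1 (137) were above Psmb8 (132.5), and Psmb9 (44.3) was below Psmb5 (48.2).

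Psmb8 encodes the inducible subunit with chymotrypsin-like activity and lies on chromosome 17 (GRCm38, 34197721 to 34201454, plus strand). It read 227, 330 and 812 CPM at the lowest, median and highest in cKO and 343, 431 and 578 CPM in WT. Only cKO 5 exceeded the highest WT library, and 3 of the 6 cKO libraries (cKO 1, cKO 2 and cKO 4) lay below the lowest WT one. The log2 fold change was -0.13 ± 0.26 (SE; edgeR adjusted p = 0.831; exact permutation p = 0.719), and without cKO 5 it was -0.45 ± 0.18 (edgeR adjusted p = 0.0930; exact permutation p = 0.0520).

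Psmb9, the inducible subunit that replaces the caspase-like Psmb6, lies beside it on chromosome 17 (34181987 to 34187764, minus strand). Its lowest, median and highest levels were 88.3, 120 and 297 CPM in cKO and 114, 155 and 214 CPM in WT. The ranges overlapped, with cKO 5 highest and cKO 2 lowest of all 12. Its log2 fold change was -0.11 ± 0.27 (edgeR adjusted p = 0.868), and -0.42 ± 0.20 without cKO 5 (edgeR adjusted p = 0.153). Part of this gene cannot be told apart from Tap1, the peptide transporter gene on the opposite strand, because their exons share 212 bases and the strand setting of the counting was not given.

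Psmb10, the inducible subunit with trypsin-like activity, lies on chromosome 8 (105935735 to 105938444, minus strand). Its levels were 122, 151 and 482 CPM in cKO and 167, 192 and 304 CPM in WT. Of the 6 cKO libraries, 4 lay below the lowest WT library and cKO 5 lay above the highest. The log2 fold change was -0.02 ± 0.31 (edgeR adjusted p = 0.975), and -0.45 ± 0.18 without cKO 5 (edgeR adjusted p = 0.0964). None of the 3 genes passed in either fit, and their median of -0.45 without cKO 5 stood beside -0.04 for the other 45 members. In the cKO libraries the summed level of the neuronal markers was high where these 3 genes were low (cKO 1, cKO 2), and its part in the difference was not tested: with a component of central nervous system markers as a covariate the 3 log2 fold changes were 0.22, 0.25 and 0.33, and without cKO 1 and cKO 2 they were 0.12, 0.15 and 0.22. In such bulk RNA, fewer cells of a type and less RNA per cell cannot be told apart.

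The constitutive catalytic genes also overlapped between the groups. Psmb5, which carries the chymotrypsin-like site, read 29.3, 40.6 and 105 CPM in cKO and 35.5, 44.4 and 51.0 CPM in WT. Its log2 fold change was 0.29 ± 0.26 (edgeR adjusted p = 0.557), and -0.03 ± 0.17 without cKO 5. The libraries cKO 5 and cKO 6 exceeded the WT range and cKO 2 fell below it. Psmb6, with the caspase-like site, read 98.1, 181 and 460 CPM in cKO and 170, 215 and 235 CPM in WT, with a log2 fold change of 0.08 ± 0.29 (edgeR adjusted p = 0.911), and -0.28 ± 0.19 without cKO 5. Psmb7, with the trypsin-like site, read 46.2, 62.1 and 111 CPM in cKO and 53.0, 62.9 and 69.9 CPM in WT, with a log2 fold change of 0.17 ± 0.18 (edgeR adjusted p = 0.630), and -0.02 ± 0.12 without cKO 5. For all 3 the highest library was cKO 5 and the lowest cKO 2, so the groups overlapped.

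**Figure D2:**
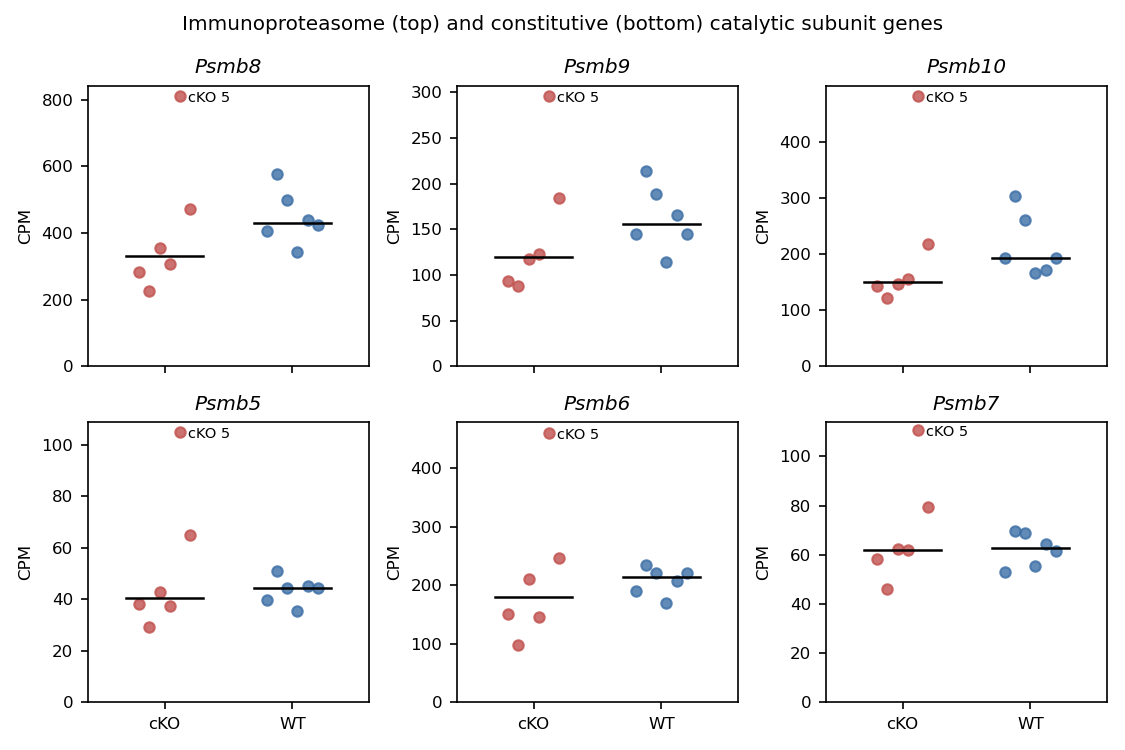
CPM of the immunoproteasome genes Psmb8, Psmb9 and Psmb10 (top) and of the constitutive genes Psmb5, Psmb6 and Psmb7 (bottom) in the 6 cKO (red) and 6 WT (blue) libraries; each point is a library and black lines are group medians. The point for cKO 5 is the highest of its panel in all 6, and the cKO median of Psmb8 (330 CPM) lies below the WT median (431 CPM).

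Each immunoproteasome subunit was then set against the constitutive subunit whose place it takes, as a ratio of counts within a library, which does not depend on library scaling. The ratio of Psmb8 to Psmb5 was 7.41, 7.74, 8.29, 8.21, 7.73 and 7.27 in cKO 1 to cKO 6 and 10.2, 11.3, 11.2, 9.68, 9.71 and 9.56 in WT 7 to WT 12. Every cKO library was below every WT library, cKO 5 included. The difference was -0.40 ± 0.05 on the log2 scale (SE, 6 against 6 libraries) and -0.40 ± 0.06 without cKO 5. No test was run on this ratio. For comparison, the ratio to Psmb5 was lower in every cKO library than in every WT library for 2.84% of all genes tested. The summed neuronal markers lay within the WT range in cKO 3, cKO 5 and cKO 6, where the ratio was 8.29, 7.73 and 7.27, and above it in cKO 1, cKO 2 and cKO 4, where the ratio was 7.41, 7.74 and 8.21. The part of neuronal RNA in the lower ratio was not tested.

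The other replacements did not separate. The ratio of Psmb9 to Psmb6 was 0.558, 0.697 and 0.899 at the lowest, median and highest in cKO and 0.656, 0.780 and 0.912 in WT, a log2 difference of -0.12 ± 0.13; this ratio to Psmb6 was separate and lower for 1.15% of all genes. The ratio of Psmb10 to Psmb7 was 2.35, 2.58 and 4.36 in cKO and 2.67, 3.38 and 4.36 in WT, a log2 difference of -0.29 ± 0.17, where 3.63% of all genes had a separate, lower ratio to Psmb7. In this pair cKO 5 alone equalled the highest WT library, and without it the difference was -0.41 ± 0.11, with the ranges still overlapping between 2.67 and 2.75.

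Psmb7 shares 28.1% of its 50-base stretches with the gene Nek6. Psmb5 shares 57.1% of its stretches with other annotated genes, so part of its reads may be counted elsewhere. Psmb8 was therefore also set against every other member. Its ratio was separate between the groups for 6 of 47 partners, lower in cKO each time, where 24 of all 1128 pairs of members (2.13%) were separate. The 6 partners were Psma4 (log2 difference -0.51), Psmb5 (-0.40), Psme2 (-0.38), Psma7 (-0.37), Psmb2 (-0.36) and Psmb4 (-0.28). Psma7, Psmb2 and Psmb4, core subunits of the alpha and beta rings, share no 50-base stretch with another gene. Psma4 shares 31.5% of its stretches and Psme2 shares 59.3%. Psmb8 itself shares 5.83% of its stretches, all with the antisense gene Gm20496. Psmb9 was separate only against Psme2 and Psmb10 against no member. Other members came near the count of Psmb8: Psmd2 was lower in 5 pairs, Psmf1 lower in 4 and Psmd14 higher in 4.

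**Figure D3:**
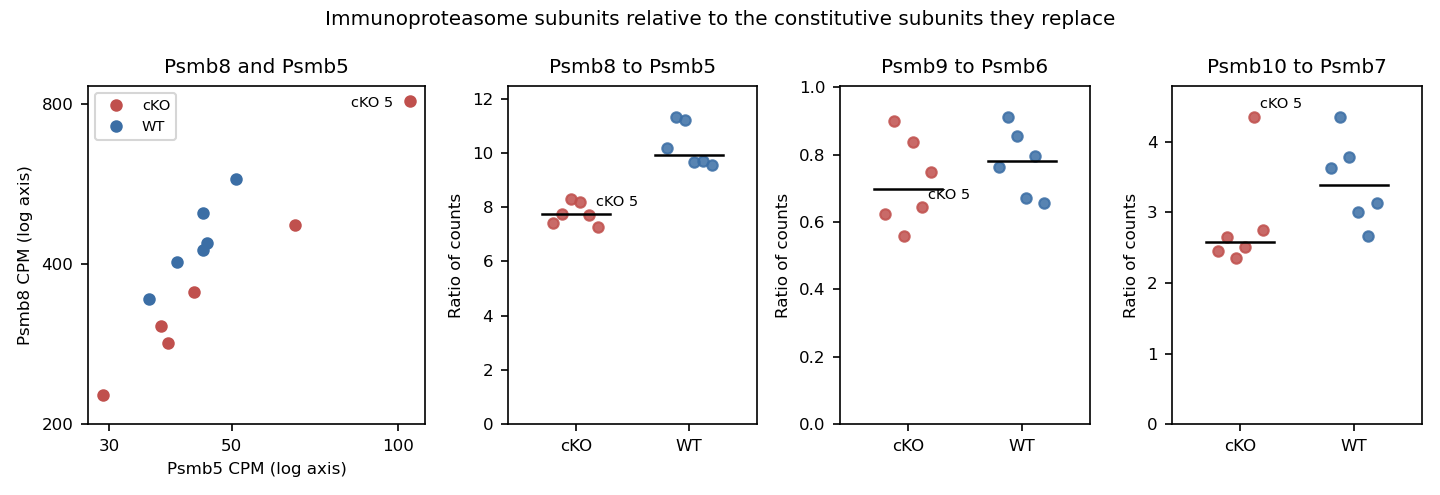
Left, CPM of Psmb8 against CPM of Psmb5 on log axes, one point per library (cKO red, WT blue); right, the ratio of counts of each immunoproteasome gene to its constitutive partner, with black lines at group medians. The 6 cKO libraries lie at 7.27 to 8.29 for Psmb8 to Psmb5, all below the 6 WT libraries at 9.56 to 11.3, while the other 2 ratios overlap.

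Across the 12 libraries the interferon-inducible members varied together, and the constitutive Psmb5 varied with them. Relations of Psmb8 with the remaining members were not computed, so the values do not set the inducible genes apart from the family. On log2 CPM, Psmb8 correlated with Psmb9 at Pearson r = 0.98 and Spearman rho = 0.97, with Psme1 at 0.98 and 0.97, with Psmb10 at 0.96 and 0.96, and with Psme2 at 0.90 and 0.92. Each of these 4 Pearson values had an adjusted permutation p of 1.5e-05 over the 6 relations computed, the raw p of 1e-05 being the smallest that 100000 permutations can give. Tap1 gave r = 0.89 and rho = 0.93 (adjusted permutation p = 0.00012) and Psmb5 gave r = 0.89 and rho = 0.93 (adjusted permutation p = 0.000108). Without cKO 5 and cKO 2, the libraries farthest from the median, r was 0.97 for Psmb9, 0.96 for Psme1, 0.92 for Psmb10, 0.92 for Tap1, 0.85 for Psme2 and 0.71 for Psmb5, with adjusted permutation p up to 0.0181. Within cKO r ran from 0.88 for Tap1 to 0.99 for Psmb5, and within WT from 0.91 for Psmb10 to 0.99 for Psmb9 (exact permutation p adjusted over the 6, at most 0.0125 in each group). Psmb5 thus tracked Psmb8 within each group at 0.99 and 0.94, with the cKO points displaced from the WT points.

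Among the WT libraries, WT 8 and WT 9 were high for this group of genes: Psmb8 read 578 and 499 CPM there against 343 to 438 CPM in the other 4, and Psmb10 read 304 and 261 CPM against 167 to 193 CPM. In the same 2 libraries Irf1, an interferon-induced transcription factor gene, read 395 and 303 CPM against 137 to 176 CPM in the other WT libraries. In cKO the 2 libraries highest for Psmb8, cKO 5 and cKO 6, were also highest for Irf1 at 388 and 263 CPM. T and NK cell markers were a list of 10, with 6 above 1 CPM in some library. They summed to 1.93 to 9.07 CPM in cKO, highest in cKO 5. In WT they summed to 3.09 to 9.90 CPM, highest in WT 11. The sum was 4.07 CPM in WT 8, 7.42 in WT 9 and 9.08 in WT 10. The part of these markers in this variation was not tested.

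The promoter windows of Psmb8, Psmb9 and Psme1 are shown beside that of Psmb5, the constitutive partner of Psmb8, which also varied with Psmb8. Each runs from 250 bases before to 50 bases after the RefSeq start (GRCm38.p6): Psmb8 at chr17:34197945-34198244 on the plus strand, Psmb9 at chr17:34187281-34187580 on the minus strand, Psme1 at chr14:55578244-55578543 on the plus strand and Psmb5 at chr14:54617946-54618245 on the minus strand. Capitals mark matches, on either strand, to 3 motifs: GAAANNGAA of interferon regulatory factors, TTCNNNGAA of the interferon-gamma activated site and TGANNNNGC, the core of the antioxidant response element.
Psmb8: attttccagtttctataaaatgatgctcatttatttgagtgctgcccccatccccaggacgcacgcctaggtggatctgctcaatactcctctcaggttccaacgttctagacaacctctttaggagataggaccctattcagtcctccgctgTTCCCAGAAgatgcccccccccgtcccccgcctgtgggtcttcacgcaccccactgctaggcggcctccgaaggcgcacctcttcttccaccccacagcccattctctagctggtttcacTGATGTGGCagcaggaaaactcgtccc
Psmb9: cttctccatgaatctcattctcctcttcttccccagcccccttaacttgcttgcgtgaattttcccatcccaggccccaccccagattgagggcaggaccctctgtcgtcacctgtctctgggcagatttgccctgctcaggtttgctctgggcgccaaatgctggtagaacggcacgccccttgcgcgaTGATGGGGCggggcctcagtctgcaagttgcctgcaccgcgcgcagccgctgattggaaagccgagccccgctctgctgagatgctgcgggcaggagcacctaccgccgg
Psme1: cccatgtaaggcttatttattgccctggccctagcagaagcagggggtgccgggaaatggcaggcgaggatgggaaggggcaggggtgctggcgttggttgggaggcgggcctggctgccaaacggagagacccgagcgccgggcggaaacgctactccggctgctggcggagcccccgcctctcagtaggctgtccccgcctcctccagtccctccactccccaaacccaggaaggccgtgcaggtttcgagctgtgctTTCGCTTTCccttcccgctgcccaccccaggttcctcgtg
Psmb5: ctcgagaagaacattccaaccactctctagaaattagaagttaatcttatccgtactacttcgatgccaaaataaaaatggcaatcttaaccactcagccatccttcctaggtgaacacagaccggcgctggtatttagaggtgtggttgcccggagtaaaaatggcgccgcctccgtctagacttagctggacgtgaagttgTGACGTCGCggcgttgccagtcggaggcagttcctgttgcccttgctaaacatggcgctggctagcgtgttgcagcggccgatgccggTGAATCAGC

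The window of Psmb8 holds TTCCCAGAA 97 bases before the start, a match to the second motif on both strands, and TGATGTGGC 23 bases after it. Psmb9 holds TGATGGGGC 60 bases before its start, Psme1 holds TTCGCTTTC, the reverse-strand form of the interferon regulatory factor motif, 10 bases after its start, and Psmb5 holds TGACGTCGC 47 bases before and TGAATCAGC 41 bases after. The RefSeq starts of Psmb9 and Tap1 are 226 bases apart and the genes run in opposite directions. Gene coordinates and shared exon bases given elsewhere are from GENCODE, whose gene ends differ from these RefSeq starts. By the GENCODE coordinates the windows of Psmb8, Psmb9 and Psme1 lie wholly inside the gene. Only the window of Psmb5 reaches upstream of its gene. Over all 32851 windows of this length, GAAANNGAA was found in 8.56%, TTCNNNGAA in 8.30% and TGANNNNGC in 41.3%. Of the 41 members with a window, 7 held the first, 3 the second and 23 the third. No 2 matches overlap in the windows shown, and a match describes the letters only.

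Among the activators, the PA28 subunit genes had their highest level in cKO 5, as the catalytic genes did. Psme1, on chromosome 14 (55578123 to 55581529), read 169, 232 and 573 CPM in cKO and 229, 280 and 413 CPM in WT. Its log2 fold change was -0.07 ± 0.27 (edgeR adjusted p = 0.911), and -0.39 ± 0.18 without cKO 5 (edgeR adjusted p = 0.149). The counts of its partner Psme2, the other PA28 subunit, cannot be told apart from those of Psme2b, a gene on chromosome 11 whose transcript matches 789 of 794 aligned bases (99.4%). Psme2 read 12.6, 16.5 and 59.5 CPM in cKO and 15.0, 17.5 and 25.5 CPM in WT, and Psme2b read 83.3, 114 and 378 CPM in cKO and 101, 122 and 187 CPM in WT. The log2 fold changes were 0.35 ± 0.35 for Psme2 and 0.28 ± 0.34 for Psme2b (edgeR adjusted p = 0.597 and 0.681), and -0.15 and -0.17 without cKO 5. Which of the genes the reads came from is uncertain, and their sum was 95.9 to 437 CPM in cKO and 116 to 212 CPM in WT, again overlapping.

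The other activator genes had narrower ranges. Psme3, the nuclear PA28 gamma subunit, read 109, 121 and 169 CPM in cKO and 113, 122 and 146 CPM in WT, with a log2 fold change of 0.06 ± 0.12 (edgeR adjusted p = 0.833), and -0.04 ± 0.09 without cKO 5. Psme4 read 15.5, 16.8 and 23.6 CPM in cKO and 14.8, 16.9 and 18.2 CPM in WT, with a log2 fold change of 0.11 ± 0.12 (edgeR adjusted p = 0.624), and 0.02 ± 0.09 without cKO 5. Both overlapped between groups. Psmf1, a proteasome inhibitor, had a log2 fold change of -0.05 ± 0.10, and -0.12 ± 0.09 without cKO 5.

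In the core particle all 8 alpha ring genes and all 4 structural beta genes had a log2 fold change above 0 with all libraries, with medians of 0.22 and 0.15, and none passed. Without cKO 5 the medians were -0.02 and -0.13. Psma3 had the largest fitted rise and a low level: it read 4.56, 5.47 and 7.92 CPM in cKO and 3.66, 4.28 and 5.61 CPM in WT. The log2 fold change was 0.37 ± 0.16 (edgeR p = 0.0369, adjusted p = 0.179; exact permutation p = 0.0281), and 0.25 ± 0.14 without cKO 5. It shares 22.0% of its 50-base stretches with other genes, and whether reads were lost to them was not tested. Psma4, another alpha subunit, read 30.3, 36.0 and 73.9 CPM in cKO and 30.1, 33.5 and 36.5 CPM in WT, with a log2 fold change of 0.34 ± 0.19 (edgeR adjusted p = 0.317). Without cKO 5 it was 0.10 ± 0.11.

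In the regulatory particle the 6 ATPase genes Psmc1 to Psmc6, whose products unfold substrates, had log2 fold changes of 0.12 to 0.25, and the median moved from 0.22 to 0.01 without cKO 5. Of the 11 other subunits 9 were above 0 (median 0.21), and 7 were without cKO 5 (median 0.07). Psmd14, the deubiquitinase that removes ubiquitin chains from substrates, had the smallest p of the family and was chosen for description after that was seen. It read 22.5, 24.7 and 35.4 CPM in cKO and 16.9, 21.2 and 24.4 CPM in WT. Its log2 fold change was 0.31 ± 0.13 (edgeR p = 0.0280, adjusted p = 0.155; exact permutation p = 0.0217), and 0.21 ± 0.10 without cKO 5 (edgeR adjusted p = 0.165). Psmd8, a lid subunit, had the lowest value of the family: it read 135, 203 and 335 CPM in cKO and 188, 243 and 298 CPM in WT. Its log2 fold change was -0.14 ± 0.20 (edgeR adjusted p = 0.743), and -0.30 ± 0.17 without cKO 5.

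The exact permutation test was run on 14 members without adjustment, and the smallest two-sided p it can give is 0.00216 for 6 against 6 libraries. Among the assembly chaperones, Psmd5, Psmd9 and Psmd10, which help to build the ATPase ring, had log2 fold changes of 0.09, -0.02 and 0.02, and without cKO 5 of 0.06, -0.24 and -0.12. Psmg1 to Psmg4, which assemble the alpha ring, had values from -0.09 to 0.10, and all 4 were below 0 without cKO 5 (median -0.20), with Psmg4 at -0.09 ± 0.28 and, without cKO 5, -0.42 ± 0.20 (edgeR adjusted p = 0.155).

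The choice of model changed which members were called. With the component of central nervous system markers as a covariate, all 48 log2 fold changes were above 0 with a median of 0.39, and 3 genes passed as higher in cKO: Psmc2, an ATPase, at 0.41 (edgeR adjusted p = 0.0270), Psmd7, a lid subunit, at 0.48 (adjusted p = 0.0282) and Psma4 at 0.59 (adjusted p = 0.0349). That is 6.25% of the members beside 2.13% of all genes higher in that fit. With limma-voom and sample weights, 3 genes passed as lower: Psmb8 at -0.48 (limma adjusted p = 0.0294), Psmg4 at -0.48 (adjusted p = 0.0376) and Psmd2, a scaffold of the regulatory particle, at -0.26 (adjusted p = 0.0488), again 6.25% of members beside 14.2% of all genes lower in that fit. The sets called by these fits had no gene in common and opposite directions.

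The spread among cKO libraries was larger than among WT libraries for all 48 genes, and for 39 of 48 without cKO 5. The same share over all genes was not computed, so this is not shown to be particular to the proteasome genes. The median SD of log2 CPM was 0.44 in cKO and 0.17 in WT, and 0.25 in cKO without cKO 5. The library cKO 5 was the highest of the 12 for 47 of 48 members, beside 22.9% of all genes tested, the exception being Psmd5, which was highest in cKO 6. The 48 genes took 0.826% of all counts in cKO 5 and 0.365% to 0.500% in the other 11 libraries. Relative to the median of the other libraries, cKO 5 was above 0 for all 48, at a median log2 ratio of 0.92 against -0.05 for all genes. The highest ratios were 1.81 for Psme2 (3.52-fold), 1.67 for Psme2b, 1.48 for Psmb10, 1.36 for Psma5 and 1.29 for Psmb5, and the lowest was 0.19 for Psmd5. At the other end, cKO 2 was the lowest library for 32 of 48 members. Its median log2 ratio to the others was -0.36 for the members, against 0.01 over all genes. The share of all genes lowest in cKO 2 was not computed. This library also had the highest neuronal marker sum.

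**Figure D4:**
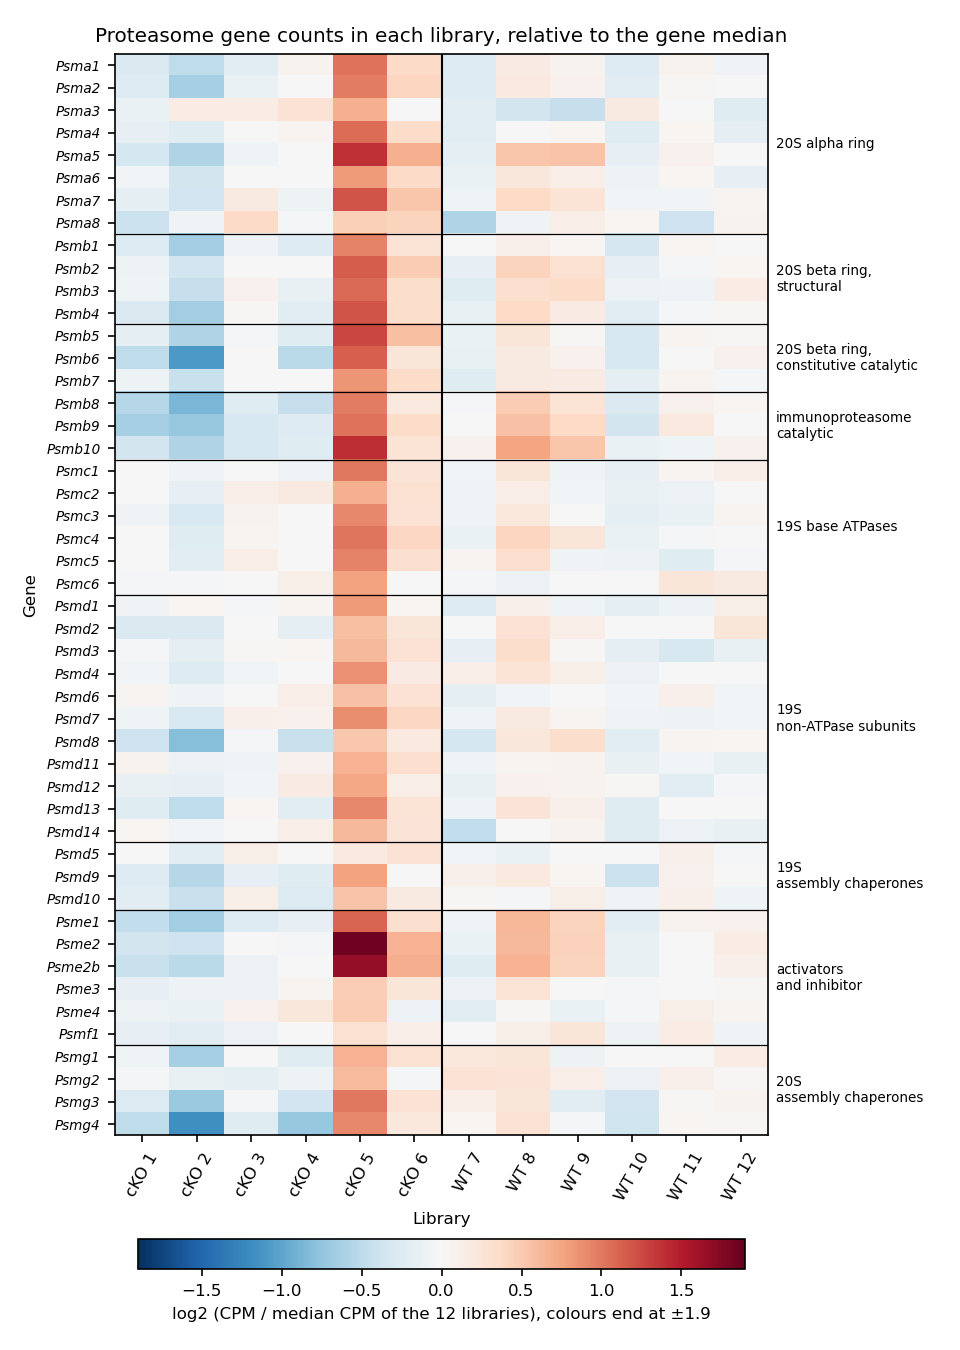
Log2 ratio of CPM to the median of the 12 libraries for the 48 tested proteasome genes (rows, by subunit class) in each library (columns, cKO left and WT right of the black line). The column of cKO 5 is red throughout and is the row maximum in 47 of 48 rows, cKO 2 is the row minimum in 32, and the immunoproteasome genes, Psme1, Psme2 and Psma5 are among the redder rows in WT 8 and WT 9.

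The level in cKO 5 went with transcript length. Among protein-coding genes with a mean log2 CPM above 5, the median log2 ratio of cKO 5 to the other libraries was 0.53 in the shortest eighth (285 to 1404 bases, 579 genes) and -0.33 in the longest. Of the 48 members 34 met this level, and they were mostly short: 16 of them lay in the shortest eighth, with a median ratio of 1.12, and 9 in the next, at 0.93 beside 0.24 for all genes there. Over all 48 tested members the Spearman correlation of length with the ratio was -0.64, given as a description since the genes share 1 library. The medians of the 34 were above those of genes of like length in each eighth that held any, and the part of length in their level in cKO 5 was not tested.

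**Figure D5:**
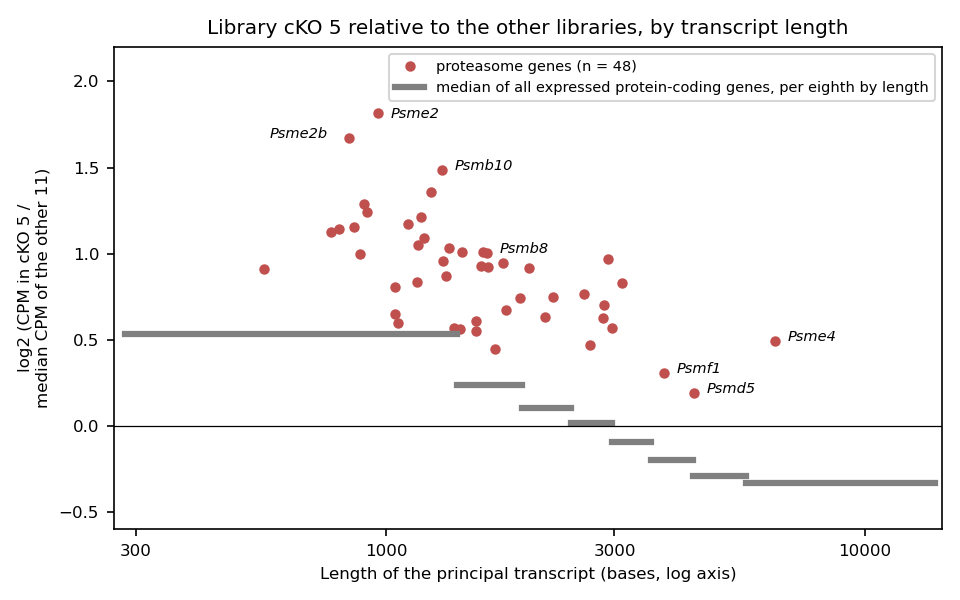
Log2 ratio of CPM in cKO 5 to the median of the other 11 libraries against the length of the principal transcript (log axis) for the 48 tested proteasome genes (red); grey bars are medians of all protein-coding genes with a mean log2 CPM above 5 in each eighth by length, the last drawn only to the edge of the plot. The grey bars fall from 0.53 to -0.33 with length and the red points lie at 0.19 to 1.81.

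Genes that work with the proteasome were looked at as 4 lists. Of 15 tested proteasome-associated proteins none passed in either direction (median log2 fold change 0.10), nor did any of 12 ubiquitin and unfolding genes (0.06), 14 genes of transcriptional control (-0.00) or 11 peptide-loading genes (-0.16), beside 5.87% of all genes. Their median ratios in cKO 5 were 0.07, 0.39, -0.03 and 0.23, against 0.92 for the proteasome genes. Pomp, the maturation factor of the core particle, read 444 CPM in cKO 5, above 131 to 227 CPM in the other cKO libraries and 169 to 232 CPM in WT. Nfe2l1, the transcription factor that raises proteasome genes when activity is short, read 217, 240 and 268 CPM in cKO and 174, 211 and 228 CPM in WT, with a log2 fold change of 0.22 ± 0.09 (edgeR adjusted p = 0.170), and it was lowest of the cKO libraries in cKO 5.

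The genes of smallest p in each list gave small values. Akirin2, which carries proteasomes into the nucleus, had a log2 fold change of 0.28 (edgeR adjusted p = 0.182). Without cKO 5 it was 0.35 (edgeR adjusted p = 0.0276), in a fit where 18.6% of all genes passed. Zfand5, a proteasome activator, had -0.29, Ecpas, a scaffold that binds proteasomes, 0.24, and Ube3c, a ubiquitin ligase on the proteasome, 0.20 (edgeR adjusted p from 0.148 to 0.295). Vcp, the unfoldase that extracts ubiquitinated proteins, had 0.31 (edgeR adjusted p = 0.148), and the ubiquitin-activating enzyme Uba1 had 0.22, which without cKO 5 was 0.28 (edgeR adjusted p = 0.0495).

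Of the 11 tested peptide-loading genes, 3 had a log2 fold change above 0 (median -0.16, and -0.27 without cKO 5). Among the 4 with the smallest p, 2 had values below 0 and 2 above. Tapbp, which bridges the peptide transporter to MHC class I molecules, read 420, 591 and 881 CPM in cKO and 747, 819 and 1108 CPM in WT. Its log2 fold change was -0.50 ± 0.19 (edgeR adjusted p = 0.129), and -0.62 without cKO 5 (edgeR adjusted p = 0.0262, where 18.6% of all genes passed). H2-D1, a class I heavy chain, read 2457, 3352 and 5694 CPM in cKO and 4083, 4904 and 6229 CPM in WT, with a log2 fold change of -0.44 ± 0.20 (edgeR adjusted p = 0.195), and -0.42 without cKO 5. Both overlapped between the groups. Pdia3 and Calr, chaperones of class I folding, had log2 fold changes of 0.17 and 0.21 (edgeR adjusted p = 0.406 and 0.428).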

How the data were processed

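The deposited table holds raw counts per Ensembl gene for 12 libraries. Per the labels' protocols the RNA was extracted with a Direct-zol kit and the libraries made with a stranded KAPA mRNA kit; the submitters' processing notes name bcl2fastq 2.17, FastQC, Trimmomatic and the build mm10. For the aligner, the counter, its strand setting and the annotation: not given in the sources used here. Symbols, coordinates, principal transcripts and overlaps came from GENCODE vM21, which matched 37607 of 39017 identifiers, and promoter windows from RefSeq. The interferon regulatory factor motif was shortened by a base after a longer form had been searched.

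Counts were tested with edgeR 4.0.16 in R 4.3.3 (filterByExpr, TMM scaling, robust quasi-likelihood test, Benjamini-Hochberg over 15015 genes, threshold 0.05), with no covariate and one spread estimate from all 12 libraries. CPM divide counts by the library total over tested genes multiplied by the TMM factor of the library. These factors ran from 0.912 in WT 12 to 1.23 in cKO 2, with 1.14 in cKO 4 and 1.12 in cKO 1. Single members were also compared by two-sided exact permutation of CPM, and relations by 100000 permutations. Stretches of 50 bases shared between transcripts marked uncertain genes. Alternatives were DESeq2 1.42.0, limma-voom 3.58.1 with sample weights, RLE scaling, other filters, a covariate from markers of neurons, glia and vessels, and each library left out; DESeq2 size factors entered through the DESeq2 fit. The scripts were tested on simulated counts. No 2 libraries agreed within sampling noise.

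Named genes were the catalytic pairs, Psme1 to Psme4, the 3 largest rises and 3 largest falls by fold change, the highest and lowest per kilobase, any called, and up to 4 genes of smallest p in each of the 4 partner lists; a few of these are not reported here. The members and lists were chosen with earlier results of these data known.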

Additional observations from a re-analysis of the deposited data

Results flagged for a closer look

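For 4 of the genes described in full and 1 ratio, a single library lay far from the other 5 of its group, measured as the gap to its nearest neighbour divided by the whole range of the group. In cKO this was cKO 5, the highest, for Psmb10 (0.733), Psme2 (0.711) and Psma4 (0.654), and for the ratio of Psmb10 to Psmb7 (0.800), where cKO 5 stood at 4.36 and the other cKO libraries at 2.35 to 2.75. In WT it was WT 8, the highest, for Psme3 (0.662). Over all 48 tested members the same measure marked cKO 5 for 13, WT 10 as the lowest for 2 and WT 8 for 1. Chance marks a group of this size at a rate of 5% or so, and the members are not independent.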

How the results depend on the processing

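The groups had 0 members called under RLE scaling, DESeq2, no filter on low counts, a mean of at least 5 CPM and each library left out; with the marker component 3 were called higher, and with sample weights 3 lower. Over all genes, 882 were called, 1810 by DESeq2, 4638 with sample weights, 416 without cKO 1 and cKO 2, and 460 to 2818 with 1 library left out, the highest without cKO 5. Single members changed sign under several settings. With sample weights the log2 fold changes were -0.10 for Psmb5, -0.37 for Psmb6, -0.028 for Psmb7, -0.22 for Psme2 and -0.063 for Psme3. With the marker component they were 0.22 for Psmb8, 0.25 for Psmb9, 0.33 for Psmb10, 0.16 for Psmd8 and 0.27 for Psme1, and without cKO 1 and cKO 2 they were 0.12, 0.15, 0.22, 0.057 and 0.17. With 1 library left out the values ran from -0.45 to 0.10 for Psmb10, -0.42 to 0.0081 for Psmb9, -0.029 to 0.41 for Psmb5, -0.28 to 0.23 for Psmb6, -0.015 to 0.26 for Psmb7, -0.39 to 0.042 for Psme1, -0.15 to 0.49 for Psme2 and -0.037 to 0.11 for Psme3. Of 266 such values for the members described in full, 234 kept their direction and side of the threshold and 30 changed sign; the cause was not tested. The WT median ratio per kilobase was 5.49 for Psmb8 to Psmb5, 0.460 for Psmb9 to Psmb6 and 2.99 for Psmb10 to Psmb7; without length it was 9.94, 0.780 and 3.38, and with the summed length of all exons, an alternative chosen after seeing the data, 2.64, 0.399 and 6.79, so these levels depend on the length used while the group differences do not. Leaving out cKO 5 for levels and ratios was also chosen after seeing the data. No paired analysis was possible because the replicate numbers, 1 to 6 in cKO and 7 to 12 in WT, are not shared. Low counts limit Psmb11, and shared sequence limits Psmb5, Psme2 and Psme2b.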
